A study of Rattus norvegicus with 20 samples.

Results

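The genes described are 68 splicing factor genes of the rat, chosen by name from the array's annotation: every gene whose symbol starts with Srsf, Sf3a, Sf3b, Hnrnp, Snrp, Snrnp, Prpf or U2af, and Puf60. They are 68 of 14217 named genes and had 111 of the 31042 probe sets tested, a probe set being the group of probes that reads 1 transcript, and each gene was read by its probe set with the highest mean signal. The rule used names and mean signal and no measured difference, but it was chosen with earlier results of these data known. The samples were nasal epithelium of untreated adult Sprague Dawley rats with no genetic modification and no disease by their labels. Olfactory epithelium, which carries the sensory neurons of smell, was taken from 6 males (aged 11 to 14 weeks) and 2 females (13 and 14 weeks), and respiratory epithelium, the ciliated and secretory lining of the nose, from 6 males (11 to 14 weeks) and 6 females (11 to 14 weeks), 1 array each. By the numbers in the labels these 20 arrays came from 13 rats, 7 of which gave both tissues (5 males and 2 females) although the study's design names 9 male and 9 female animals. P-values measure the spread between these arrays. The tissues were collected by hand, so each sample is a mixture of cell types, and fewer cells of a type and less RNA per cell cannot be told apart.

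Splicing removes introns from newly made RNA. The spliceosome that does it is built from small nuclear ribonucleoproteins, the U1, U2, U4, U5 and U6 snRNPs. Each is a small RNA with proteins of its own, and in all except U6 the RNA is wrapped in a ring of Sm proteins. U1 marks the start of an intron, U2 with the SF3a and SF3b complexes and the U2AF proteins marks its end, and the tri-snRNP of U4, U6 and U5 brings in the Prpf proteins that form and check the catalytic centre. SR proteins mostly promote the use of an exon and hnRNPs often oppose it, and the balance between them shifts exon choice in many tissues. Such factors are needed in every cell that divides or makes messenger RNA. Some other regulators, among them several of the Elavl, Celf, Rbfox and Khdrbs families, are largely restricted to neurons or a few other tissues.

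Promoter sequence, a feature the choice of members did not use, was read from RefSeq on the GRCr8 assembly for the 250 bases before the start of each gene. It was found for 63 of the 68 members, including 7 of the 10 that differed between the tissues in males. The 3 shown belong to called members of different roles: Srsf4, the SR protein with the largest rise in male olfactory epithelium, Hnrnpa0, an hnRNP called in both sexes, and Snrpb, the one Sm protein called. Capitals mark 3 motifs on either strand. The letters CCAAT are the box of that name. The letters GGGCGG are a site of SP1. The letters CCGGAAG are a site of ETS factors. The regions are chr5:149345288-149345537 on the plus strand for Srsf4, chr17:6512879-6513128 on the plus strand for Hnrnpa0 and chr3:137832480-137832729 on the minus strand for Snrpb.
Srsf4: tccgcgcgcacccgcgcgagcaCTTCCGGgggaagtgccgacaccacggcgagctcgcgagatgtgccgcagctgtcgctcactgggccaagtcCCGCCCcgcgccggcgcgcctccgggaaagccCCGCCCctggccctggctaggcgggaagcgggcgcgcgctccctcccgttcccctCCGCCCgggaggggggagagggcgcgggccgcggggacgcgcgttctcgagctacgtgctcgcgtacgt
Hnrnpa0: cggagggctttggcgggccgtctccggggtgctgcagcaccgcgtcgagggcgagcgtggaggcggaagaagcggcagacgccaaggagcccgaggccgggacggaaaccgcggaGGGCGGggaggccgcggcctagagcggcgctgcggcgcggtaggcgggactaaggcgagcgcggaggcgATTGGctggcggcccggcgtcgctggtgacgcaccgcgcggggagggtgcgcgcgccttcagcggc
Snrpb: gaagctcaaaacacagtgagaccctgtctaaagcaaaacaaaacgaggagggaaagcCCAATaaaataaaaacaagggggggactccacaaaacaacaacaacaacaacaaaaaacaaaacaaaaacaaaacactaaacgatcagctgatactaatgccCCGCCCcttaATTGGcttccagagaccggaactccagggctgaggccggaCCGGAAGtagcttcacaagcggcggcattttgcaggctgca
The Srsf4 window held SP1 and ETS sites, the Hnrnpa0 window a CCAAT box and an SP1 site, and the Snrpb window all 3 kinds. Of the 63 members' windows, 30.2% held the ETS site, against 7.74% of all 27457 promoters of this length and 9.52% of the 19005 of protein-coding genes. The SP1 site stood in 58.7% of the members' windows (32.4% of all promoters, 40.3% of protein-coding ones) and the CCAAT box in 47.6% (34.3% and 35.5%). The TATA box, spelled TATAAA, stood in 9.52% (13.1% of all), the palindromic NRF1 site in 3.17% (0.849%), the cyclic AMP response element TGACGTCA in 3.17% (1.7%) and the YY1 site AAGATGGC in 0 of 63 (1.69%). The median ratio of observed to expected CpG was 0.89 in the members' windows, 0.406 in all and 0.523 in protein-coding ones. Each motif was searched as its exact letters on both strands, and a match is a description of the letters only.

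The labels' tissues were checked on marker genes. Omp, the marker of mature olfactory neurons, had signals of 21368 to 26936 on the male olfactory arrays and 815 to 5359 on the male respiratory arrays, 25725 and 26058 on both female olfactory arrays and 1424 to 9625 on the female respiratory arrays. In males 8 of 9 mature neuron markers were higher in olfactory epithelium and all 8 leukocyte markers were lower, with summed signals of 5416 to 10781 against 25420 to 50942. Basal cell markers were lower for 5 of 6 and connective tissue markers for 5 of 6, and of 9 cell cycle genes 0 differed. Immature neuron markers were higher for 11 of 12, with summed signals of 41622 to 59156 against 7455 to 26763. Other lists separated the male tissues less clearly. Ciliated cell markers were lower for 1 of 5, and secretory and goblet cell markers for 4 of 8, with 0 higher in both lists. Endothelial markers were lower for 3 of 5 and erythrocyte markers for 2 of 3, again with 0 higher. Sustentacular cell markers were split, with 4 of 8 higher and 3 lower. The RNA integrity number, which rates the RNA from degraded to intact, averaged 8.54 (n = 5) in male olfactory and 9.2 (n = 4) in male respiratory samples without overlap, and 8.3 (n = 2) and 8.98 (n = 6) in females, again without overlap, so RNA integrity and tissue cannot be told apart. The part of these cell types in the members' differences was not tested.

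Before the comparisons, 3 arrays need naming that stand apart over all genes and on which the splicing factors scattered. On the second principal component of all probe sets, which holds 15.8% of the variance, they lay at -68.1, -97.5 and -113 and the other 17 between -30.8 and 84.4. The deviations of the 68 members from their group means had an SD of 0.67 to 0.80 on the log2 scale on male olfactory array 10, male respiratory array 7 and female respiratory array 8, against 0.159 to 0.433 on the other 17. On these 3 arrays the deviations differed by role. The Sm core proteins had median deviations of 0.88, 0.57 and 1.29 above the group mean, the minor spliceosome genes 0.77, 0.66 and 1.33, while hnRNPs lay at -0.42, -0.55 and -0.52 and SR proteins at -0.19, -0.72 and -0.35. In all, 13 members lay above and 25 below their group mean on all 3. The same SD and counts were not taken for the named genes, so this scatter cannot be called particular to the splicing factors. The most raised were Sf3b6, a small SF3b subunit, with deviations of 1.03, 1.13 and 2.10, and Snrpb2, a U2 snRNP protein, with 1.36, 0.74 and 1.95. The most lowered were Prpf6 of the tri-snRNP, with -1.07, -0.30 and -1.57, and Hnrnph3, with -0.77, -1.53 and -0.62. The integrity number was 8.5 for male olfactory array 10 and 8.7 for female respiratory array 8, the first inside the range of the male olfactory samples (8.2 to 8.8) and the second equal to the lowest of the female respiratory ones, and male respiratory array 7 has none in its label. These arrays were singled out after the values were seen, and what sets them apart was not tested.

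**Figure D1:**
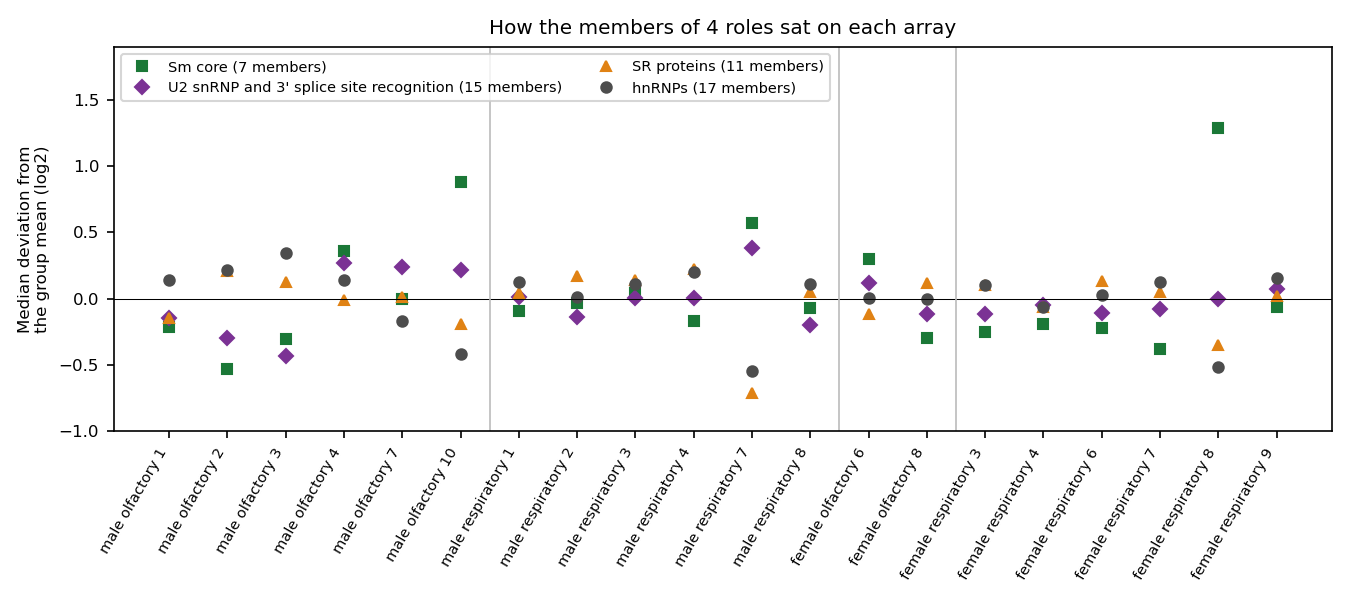
Median deviation from the group mean, on the log2 scale, of the members of 4 roles (Sm core, U2 and 3' splice site genes, SR proteins and hnRNPs) on each of the 20 arrays, with vertical lines between the 4 groups. Of these 4 roles the Sm core lies highest and the hnRNPs and SR proteins lie low on male olfactory array 10, male respiratory array 7 and female respiratory array 8.

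The first comparison asked how olfactory differs from respiratory epithelium in males, 6 arrays against 6. Of the 68 splicing factor genes, 8 were higher and 2 lower in olfactory epithelium at an adjusted p under 0.05 (limma's test, Benjamini-Hochberg over all 31042 probe sets), which is 14.7%. The background was higher: 31.8% of the named genes and 25.2% of all probe sets passed, 14% of the named genes as higher and 17.8% as lower. At an unadjusted p under 0.05 the counts were 21 of 68 and 42.3% of the named genes. The higher members were Srsf4 and Srsf10, Hnrnpll, Hnrnpa0 and Hnrnpl, Puf60 and Sf3b4, and Snrpb, and the lower ones Prpf38b and Srsf7-ps4. The median size of the members' log2 difference was 0.33, against 0.44 for all named genes, and their median was 0.07, against -0.05. In males only Srsf7-ps4 passed the test with a difference of at least 2-fold, whereas 2790 named genes (19.6%) did. The 95% interval of the difference lay wholly within 2-fold in either direction for 54 of the 68 members (79.4%) and for 48.2% of the named genes, so for most members a change of that size is outside the interval. Both groups of arrays were free of overlap for 2 members, Hnrnpa0 and Hnrnpll, both higher. Of the named genes 7.54% were higher without overlap and 10.2% lower. The members' share called was below that of the named genes in the main analysis and under each alternative tried, 36 settings in all. Members with a mean log2 signal of at least 10 (47) passed in 17% of cases, and named genes as bright (3486) in 36.1%.

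**Figure D2:**
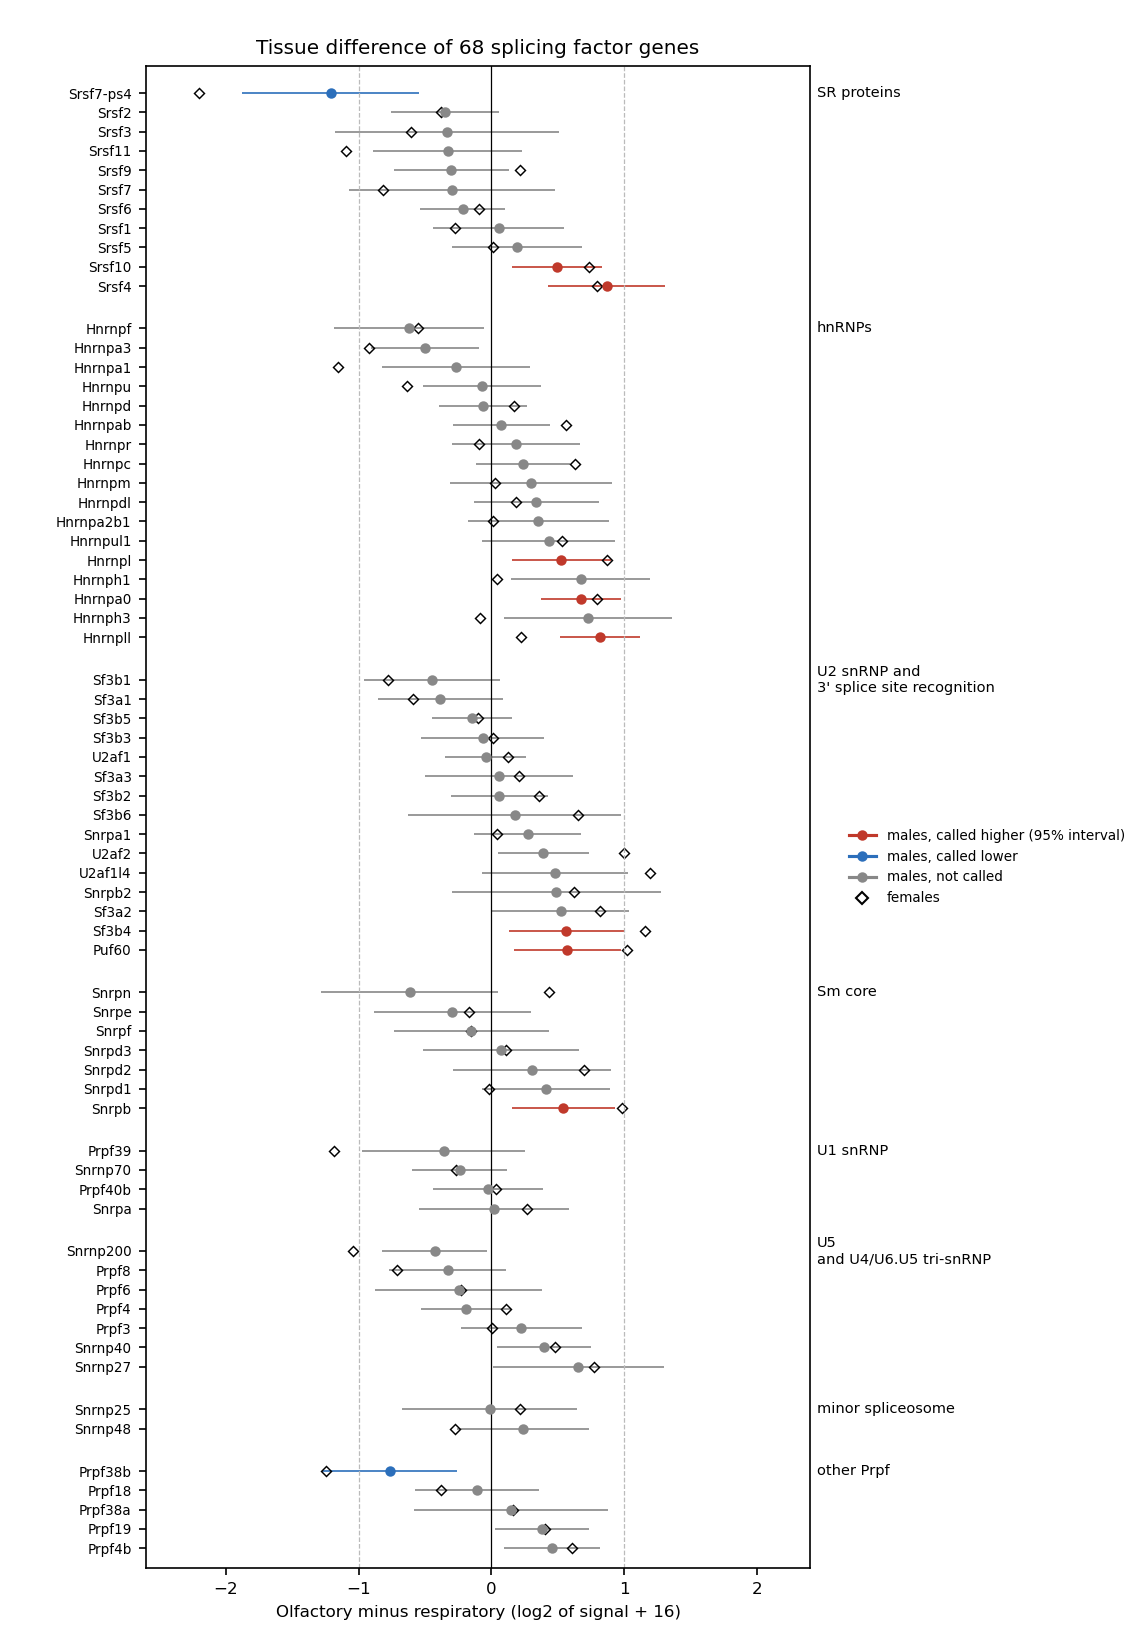
Difference between olfactory and respiratory epithelium for each of the 68 members, in log2 of signal plus 16, grouped by role: filled points are males with 95% intervals (6 arrays against 6), open diamonds are females (2 against 6). Most points lie between the dashed lines at a 2-fold difference, and 8 members passed as higher and 2 as lower in males.

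SR proteins bind exons through RNA recognition motifs and recruit the spliceosome through arginine-serine repeats. Of 11 SR genes 2 rose and 1 fell in male olfactory epithelium. Srsf4, an SR protein known from splice site choice, had signals of 1165 at the lowest, 1972 at the median and 2534 at the highest in male olfactory arrays and 928, 986 and 1201 in male respiratory arrays. Only male olfactory array 10, at 1165, fell within the respiratory range. The difference was 0.87 on the log2 scale (SE 0.21, 1.82-fold, limma's adjusted p = 0.0036), higher in 5 of 5 male rats with both tissues, and it kept its call without any 1 array (adjusted p 0.00037 to 0.011). Srsf10, which represses splicing when dephosphorylated after heat shock, ran from 1124 through 1296 to 1526 in male olfactory and from 546 through 978 to 1139 in male respiratory arrays. The ranges overlapped through male olfactory array 10, at 1124, and male respiratory array 2, at 1139, and the difference was 0.49 (SE 0.16, 1.41-fold, adjusted p = 0.028), higher in 5 of 5 rats. It missed the threshold without male olfactory array 1 (adjusted p = 0.068) or male respiratory array 7 (0.056). The 4 other probe sets of Srsf10 all pointed the other way, with log2 differences of -0.20, -0.25, -0.44 and -0.47, none of which passed, so the direction of this gene rests on 1 probe set.

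Srsf7-ps4, whose symbol marks it as a pseudogene copy of Srsf7, showed the one called difference of at least 2-fold among males. It had signals of 68.1, 108 and 145 (lowest, median, highest) in male olfactory arrays against 81.6, 281 and 423 in male respiratory arrays. All respiratory arrays except array 7, at 81.6, lay above all olfactory ones. The log2 difference was -1.21 (SE 0.32, adjusted p = 0.0071), lower in 5 of 5 rats, and it held without any 1 array (adjusted p 0.00020 to 0.024). Srsf7 itself, the factor this copy derives from, had a difference of -0.30 (SE 0.37, adjusted p = 0.63) from signals of 44.3 to 156 in male olfactory and 46.1 to 172 in male respiratory arrays, and 4 of its 20 values were at background. Probes may not tell the pair apart, so both are uncertain as readings of 1 gene. The other 7 SR genes, among them Srsf1, Srsf2, Srsf3 (at background on 5 arrays) and Srsf6, lay between -0.35 and 0.19 and did not pass.

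The hnRNPs coat nascent RNA, and many repress nearby splice sites. Of 17 hnRNP genes 3 rose in male olfactory epithelium and 0 fell. Hnrnpll, a regulator known from exon skipping in lymphocytes, had signals of 1183, 1686 and 1909 in male olfactory arrays and 827, 856 and 1025 in male respiratory arrays, with no overlap. The difference was 0.82 (SE 0.15, 1.76-fold, adjusted p = 0.00018), higher in 5 of 5 rats. The leukocyte markers were lower in the same tissue, and their part in this difference was not tested. Hnrnpa0, which binds AU-rich elements of messages, had 6905, 9179.6 and 11388 in male olfactory arrays and 4983, 5603 and 6828 in male respiratory arrays, again with no overlap. Its difference was 0.67 (SE 0.15, 1.59-fold, adjusted p = 0.0013), higher in 5 of 5 rats. Both kept their call without any 1 array, with an adjusted p of at most 0.00070 for Hnrnpll and 0.0049 for Hnrnpa0.

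Hnrnpl, the paralog of Hnrnpll that binds CA repeats, had 5148, 7007 and 7893 in male olfactory arrays and 3816, 4323 and 6927 in male respiratory arrays. Array 7, at 6927, was the one respiratory value within the olfactory range. The difference was 0.53 (SE 0.18, adjusted p = 0.035), higher in 5 of 5 rats, and leaving out any 1 of 9 arrays took the adjusted p to between 0.054 and 0.085. Those were male olfactory arrays 1, 4, 7 and 10 and male respiratory arrays 1, 2, 3, 4 and 8. The 14 hnRNP genes that did not pass ran from -0.62 for Hnrnpf to 0.73 for Hnrnph3 (adjusted p = 0.087). They include Hnrnph1 at 0.67 (adjusted p = 0.054), Hnrnpa2b1 at 0.35 and Hnrnpu at -0.07.

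**Figure D3:**
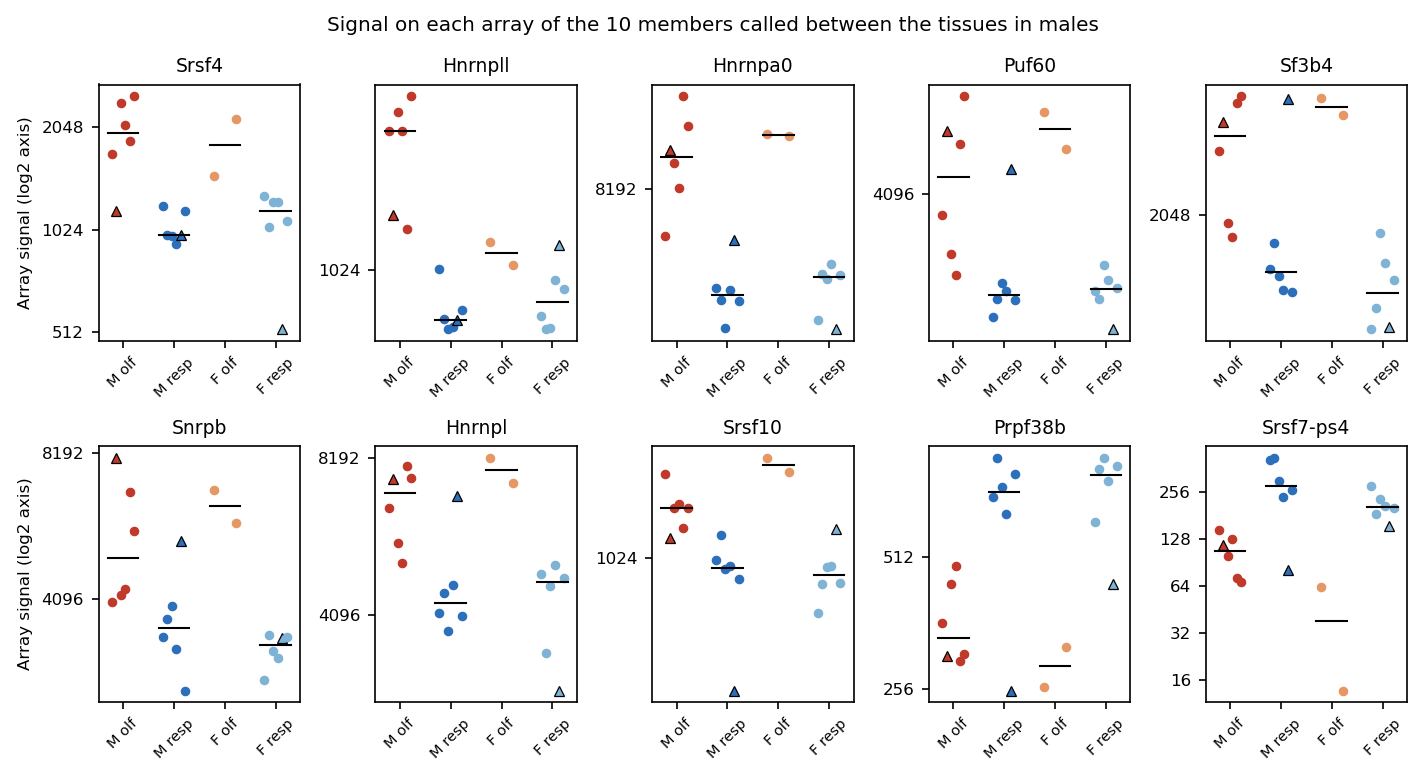
Signal on each array, on a log2 axis, of the 10 members called between the tissues in males, by group (M, male; F, female; olf, olfactory; resp, respiratory), with the group median as a bar and male olfactory array 10, male respiratory array 7 and female respiratory array 8 as outlined triangles. Hnrnpll and Hnrnpa0 have no overlap in males, and in Hnrnpl, Puf60, Sf3b4, Srsf10, Prpf38b and Srsf7-ps4 the triangle of male respiratory array 7 lies apart from the other 5 respiratory arrays.

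Recognition of the end of the intron by U2AF, PUF60 and the U2 snRNP is among the first steps of spliceosome assembly. Of 15 such genes 2 rose and 0 fell in male olfactory epithelium. Puf60, which binds the polypyrimidine tract with U2AF, had signals of 2864, 4413 and 6281 in male olfactory and 2385, 2628 and 4559 in male respiratory arrays. Without male respiratory array 7, at 4559, the highest respiratory value was 2773. The difference was 0.57 (SE 0.19, 1.49-fold, adjusted p = 0.033), higher in 5 of 5 rats. It missed the threshold without any 1 of 8 arrays, which were male olfactory arrays 4, 7 and 10 and male respiratory arrays 1, 2, 3, 4 and 8 (adjusted p 0.059 to 0.090). Sf3b4, a subunit of SF3b that contacts the RNA near the branch point, had 1858, 2911 and 3467 in male olfactory and 1461, 1592 and 3425 in male respiratory arrays, with array 7 again the highest respiratory one. Its difference was 0.57 (SE 0.21, adjusted p = 0.049), higher in 5 of 5 rats. It sat at the threshold and lost its call without any of 16 arrays (adjusted p 0.051 to 0.110), all except male olfactory arrays 2 and 3, male respiratory array 7 and female respiratory array 8. The 13 others ran from -0.45 for Sf3b1, the SF3b subunit that clasps the branch point, to 0.52 for Sf3a2, and included the U2AF subunits U2af1 at -0.04 and U2af2 at 0.39 (adjusted p = 0.086). U2af2 passed without male olfactory array 2 (0.048) or 3 (0.037) or male respiratory array 7 (0.034).

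The Sm proteins form the ring on which every snRNP except U6 is built. Of 7 Sm genes 1 rose. Snrpb, which encodes SmB, had signals of 4032, 4974 and 8010.0 in male olfactory and 2645, 3565 and 5399.6 in male respiratory arrays, overlapping through array 7. The difference was 0.54 (SE 0.19, 1.46-fold, adjusted p = 0.036), higher in 5 of 5 rats. It missed the threshold without male olfactory array 4, 7 or 10 or male respiratory array 1, 2, 4 or 8 (adjusted p 0.057 to 0.102). Snrpn, which encodes the closely related SmN of neurons, had the opposite sign, -0.61 (SE 0.32, adjusted p = 0.18). Its signals were low, 26.7, 76.0 and 159 in male olfactory arrays and 106, 119 and 146 in male respiratory arrays, with 2 male olfactory and 2 female respiratory arrays at background, so no direction was resolved. The other 5, Snrpd1, Snrpd2, Snrpd3, Snrpe and Snrpf, ran from -0.29 to 0.41.

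Of 5 other Prpf genes, which act around activation and catalysis, 1 changed in males. Prpf38b, a paralog of the spliceosome activation factor Prpf38a, had signals of 296, 335 and 488 in male olfactory and 254, 722 and 862 in male respiratory arrays. Male respiratory array 7, at 254, was lower than every olfactory array, and the next respiratory value was 644. The difference was -0.77 (SE 0.25, adjusted p = 0.024), lower in 4 of 5 rats. The call was lost without male olfactory array 4 or male respiratory array 2, 3 or 8 (adjusted p 0.053 to 0.065). In the tri-snRNP none of 7 genes passed. Snrnp27 was the farthest at 0.66 (SE 0.31, adjusted p = 0.13), from 2501, 3362 and 6704 in male olfactory and 2009.9, 2064 and 3641 in male respiratory arrays. It passed without female respiratory array 8 (adjusted p = 0.020). None of the 4 U1 genes passed, with Prpf39 farthest at -0.36 (adjusted p = 0.43, or 0.024 without male respiratory array 7), and neither of the 2 genes of the minor spliceosome, which removes a rare class of introns, with Snrnp48 at 0.24 (adjusted p = 0.53). Prpf8, the protein at the catalytic centre, lay at -0.33 (adjusted p = 0.29).

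Without the 3 scattered arrays, an alternative added after seeing the data, all 10 calls in males remained and 12 members joined them, 15 higher and 7 lower. The share called became 32.4%, against 39.4% of the named genes. Those that joined as higher were Hnrnph1, Hnrnph3, Hnrnpul1, Sf3a2, U2af2, Snrnp27 and Prpf19, and those that joined as lower were Prpf39, Sf3b1, Srsf11, Hnrnpa3 and Snrnp200. The calls of Srsf4 (0.99, adjusted p = 1.6e-05), Hnrnpll (0.87, 3.3e-05) and Prpf38b (-0.97, 8.2e-05) were firmer than with all arrays. With RNA integrity added to the fit, on the arrays that have the number, 0 members passed, against 7 higher and 4 lower on the same arrays without it, and 9.9% of the named genes still did. Under that covariate the log2 differences of Puf60 and Sf3b4 shrank to 0.19 and 0.19 (adjusted p = 0.80 and 0.77), that of Srsf10 to 0.16 (0.78), of Hnrnpl to 0.38 (0.53), of Snrpb to 0.46 (0.46) and of Prpf38b to -0.52 (0.39). Srsf4 stood at 1.19 (adjusted p = 0.090), Hnrnpll at 0.75 (0.075) and Hnrnpa0 at 0.63 (0.157), and the adjusted p of Srsf7-ps4 was 0.24. With the rat as a fixed replicate block, on the rats with both tissues, 5 members were higher and 1 lower, 4 of which are among the 10. That is 8.82% of the members, against 24.6% of the named genes in the same fit. Hnrnpl (adjusted p = 0.134), Puf60 (0.115), Sf3b4 (0.163), Snrpb (0.32), Srsf10 (0.088) and Prpf38b (0.110) then missed the threshold.

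The same tissue comparison in females rests on 2 olfactory against 6 respiratory arrays. Of the 68 members 8 were higher and 5 lower (19.1%), against 22.5% of the named genes, 10.9% as higher and 11.6% as lower. At an unadjusted p under 0.05 the counts were 23 of 68 and 36.7% of the named genes. In females 8 of the 13, and so 8 of the 68 members, passed with a difference of at least 2-fold. Of the 14217 named genes 2646 did so. The 95% interval lay within 2-fold for 29 of the 68 members and for 3333 of the 14217 named genes. The order of both shares turned with the setting: the members' share was below that of the named genes in 28 of 35 settings and not below in 7, among them array weights (39.7% against 33.6%), only the compared groups (25% against 20.7%), without male respiratory array 7 (27.9% against 25.8%) and without the 3 scattered arrays (44.1% against 38.2%). The higher ones were Hnrnpa0, Hnrnpl, Puf60, Sf3b4, U2af1l4, U2af2, Snrpb and Srsf10, and the lower ones Hnrnpa1, Hnrnpa3, Snrnp200, Prpf38b and Srsf7-ps4. Of the 10 members called in males, 8 were called in the same direction in females (80%), which is 61.5% of the 13 called there, and none was called in opposite directions. Among all named genes these shares were 57.1% and 80.5%, and 18.1% of them were called in the same direction in both sexes. The signs of the 2 tissue differences were equal for 55 of 68 members (80.9%) and for 79.5% of the named genes. These calls hang on the 2 olfactory arrays. Without array 6 there were 0 higher and 1 lower (1.47%, against 7.93% of the named genes). Without array 8 there were 1 higher and 1 lower (2.94%, against 12.4%). The share of named genes called thus fell in both settings as well. The fixed replicate block, with 2 paired females, kept 1 of the 13 calls, Srsf7-ps4, where 9.98% of the named genes passed. The RNA integrity covariate kept 0, where 4.99% of the named genes passed.

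Both female olfactory arrays lay above all 6 respiratory ones for the 8 higher members. These were chosen by this same comparison, so the separation adds no further evidence. The share of named genes so separated in females was not counted. U2af2, the large U2AF subunit that binds the polypyrimidine tract, had signals of 4745 and 5228 in female olfactory arrays and 2121, 2510.3 and 2909 (lowest, median, highest) in female respiratory arrays, a difference of 1.00 (SE 0.23, 2.00-fold, adjusted p = 0.0041). It missed the threshold without female olfactory array 6 (adjusted p = 0.080), with the fixed block (0.062) and with the mean of its probe sets (0.089). U2af1l4, a relative of the small U2AF subunit, had 1466 and 1621 against 465, 619 and 1377, the last on array 8, a difference of 1.19 (SE 0.38, adjusted p = 0.030). It was lost without either olfactory array (0.22 and 0.123) or respiratory array 3 (0.051) or 7 (0.052). Sf3b4, with 3186 and 3434 against 1239.7, 1451 and 1893, differed by 1.16 (SE 0.29, adjusted p = 0.0080), and Puf60, with 4992 and 5871 against 2262, 2693 and 2994, by 1.02 (SE 0.27, adjusted p = 0.012). Without olfactory array 6 or 8 the adjusted p became 0.106 or 0.058 for Sf3b4 and 0.163 or 0.056 for Puf60. In females the group of U2 and 3' splice site genes held 4 higher and 0 lower of 15, and the hnRNPs 2 higher and 2 lower of 17.

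Hnrnpa0 had 9879 and 9942 in female olfactory arrays against 4962, 5981 and 6259 in respiratory arrays, and differed by 0.80 (SE 0.21, adjusted p = 0.0095). Hnrnpl, with 7336 and 8194 against 2936, 4741 and 5098, differed by 0.87 (adjusted p = 0.020). Snrpb, with 5882 and 6867 against 2778, 3290.3 and 3449, differed by 0.98 (adjusted p = 0.012). Srsf10 differed by 0.73 (adjusted p = 0.030). Each missed the threshold without either olfactory array, array 6 first: 0.099 and 0.075 for Hnrnpa0, 0.193 and 0.086 for Hnrnpl, 0.163 and 0.057 for Snrpb, and 0.22 and 0.118 for Srsf10, which also missed it without respiratory array 3 (0.055). Srsf4, with 1475 and 2171 against 521, 1159.6 and 1285, had nearly the male difference, 0.79 (SE 0.30), but an adjusted p of 0.070. Without male olfactory array 10, which enters the spread shared by all groups, that p was 0.043. Hnrnpll, with 1042 and 1131 against 829, 912 and 1118, stood at 0.23 (SE 0.21, adjusted p = 0.50).

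Among the lower members, Srsf7-ps4 had 13.8 and 62.7 in female olfactory arrays against 154, 205 and 281 in respiratory arrays. The lower of both was at background, and the difference was -2.20 (SE 0.46, adjusted p = 0.0017), lost without olfactory array 8 (0.101). Prpf38b, with 258 and 319.5 against 444, 789 and 864, differed by -1.25 (SE 0.35, adjusted p = 0.015), lost without olfactory array 6 (0.181) or 8 (0.064). Hnrnpa1, an abundant repressor of exon inclusion, had 998 and 1027 against 1707, 2157 and 4110.3, a difference of -1.16 (SE 0.38, adjusted p = 0.037). In males it stood at -0.27 (SE 0.27, adjusted p = 0.53) with ranges of 735 to 2632 and 1478 to 2813. Its female call was lost without olfactory array 6 (0.22) or 8 (0.157) or respiratory array 3 (0.055) or 9 (0.069). Hnrnpa3 had 5234 and 5519 against 8821, 10010.3 and 12186, a difference of -0.92 (SE 0.28, adjusted p = 0.023), lost without array 6 (0.140) or 8 (0.144). Snrnp200, the helicase that unwinds U4 from U6, had 595 and 868 against 1173, 1499 and 1734, a difference of -1.04 (SE 0.27, adjusted p = 0.0093), lost without array 6 (0.22). In males Hnrnpa3 stood at -0.50 (adjusted p = 0.064) and Snrnp200 at -0.43 (adjusted p = 0.110), and both passed without male respiratory array 7 (0.015 and 0.037), Hnrnpa3 also without male olfactory array 3 (0.045). The difference between the sexes' tissue contrasts was tested for every member and none passed.

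The last comparison asked whether the sexes differ within a tissue. In respiratory epithelium, 6 females against 6 males, 0 of 68 members passed limma's test, and 0 had an unadjusted p under 0.05, where 3.57% of the named genes did and 0.0141% passed after adjustment. The 95% interval lay within 2-fold for 63 of the 68 (92.6%) and for 78.8% of the named genes. The log2 differences, female minus male, ran from -0.59 for Snrpn to 0.47 for Prpf39, with a median size of 0.13 against 0.17 for all named genes. In olfactory epithelium, 2 females against 6 males, 0 passed (0.0211% of the named genes did) and 2 had an unadjusted p under 0.05, as 3.91% of the named genes had. These were Srsf7-ps4 at -1.28 (SE 0.46, unadjusted p = 0.0102) and Hnrnpll at -0.52 (SE 0.21, unadjusted p = 0.021). For the difference between the tissue contrasts, where 0 named genes passed, 0 members passed. Of the named genes 3.82% had an unadjusted p under 0.05, and of the members U2af2, at 0.61 (SE 0.28, unadjusted p = 0.043), and Hnrnpll, at -0.59 (SE 0.25, unadjusted p = 0.029), female minus male. Without male olfactory array 10 the counts at that unadjusted p were 6 for the sexes in olfactory epithelium and 6 for the difference of contrasts. Without the 3 scattered arrays they were 18 and 14. How many named genes had such a p in these settings was not counted. The 3.91% and 3.82% come from all arrays, so they are no measure for these counts. The counts after adjustment stayed at 0 for all 3 comparisons under every alternative run.

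Other genes of the splicing pathway, from lists written with earlier results of these data known, give the members a setting. Of 69 other genes of the core spliceosome 5 were higher in male olfactory epithelium and 0 lower (7.25%), with a median log2 difference of 0.13. Pdcd7, of the minor spliceosome, differed by 0.93 (SE 0.20, adjusted p = 0.0013), from 772 to 1439 in olfactory and 447 to 991 in respiratory arrays, and Zcrb1, of the same complex, by 0.83 (adjusted p = 0.0058). None of these 69 genes passed with a 2-fold difference. Of 17 genes of snRNP assembly 3 were higher and 0 lower, led by Clns1a, which hands Sm proteins to the assembly machine, at 0.89 (SE 0.15, adjusted p = 0.00010), and Phax, the export adaptor of snRNAs, at 0.69 (adjusted p = 0.0025). Of 10 genes on a list around SR protein phosphorylation, not all of them SR protein kinases, 1 changed. Hipk3 was lower by 2.82-fold (limma's adjusted p = 0.00062). With the mean of its probe sets Hipk3 stood at -0.62 (adjusted p = 0.052). Of 22 other abundant RNA-binding proteins 2 were higher and 1 lower, with Cirbp, a cold-induced protein, at 0.83 (adjusted p = 0.024), Pcbp2 at 0.49 (0.046) and Rbm3, also cold-induced, at -0.67 (0.0057). Cirbp lost its call without male olfactory array 4 or male respiratory array 2, 3 or 8 (0.055 to 0.073), and Pcbp2 without any of 16 arrays (0.053 to 0.103), all except male olfactory arrays 2 and 3, male respiratory array 7 and female respiratory array 8.

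Genes listed as tissue-restricted splicing regulators were called more often than the members and differed by more. The list also names broadly expressed genes, such as Ptbp1, Tia1 and Tra2b. Of the 30 listed genes measured 11 rose and 5 fell in the olfactory arrays of males (53.3%, against 31.8% of the named genes). Of these, 9 changed by at least 2-fold and were measured in both tissues, against 1 of the 68 members. Without the condition on both tissues 11 of the 30 changed so, against 19.6% of the named genes. For Khdrbs2 and Srrm3, also called higher, every male respiratory array was at background, so their signals were at least 1.69-fold and at least 1.13-fold higher. Celf4, a neuronal CELF protein, had signals of 1128 to 3694 in male olfactory and 130 to 303 in male respiratory arrays, a difference of 3.74 (SE 0.33, adjusted p = 2.2e-08). Elavl2, a neuronal Hu protein, had 664 to 895 against 62.2 to 432, a difference of 2.67 (SE 0.40, adjusted p = 2.5e-05). Among those that fell, Mbnl3 differed by -1.27 (SE 0.22, adjusted p = 0.00011) and Rbm20, known from titin splicing in muscle, by -1.09 (SE 0.33, adjusted p = 0.017). Mature neuron markers rose in the same tissue, for 8 of 9, with summed signals of 64576 to 74720 against 2786 to 12516, and their part in these differences was not tested. With the RNA integrity covariate 7 of the 30 were still higher and 1 lower (26.7%, against 9.9% of the named genes). In that fit 0 of the 68 members and 0 genes of the 4 other lists passed. The calls of Mbnl3 (adjusted p = 0.18), Rbm20 (0.32), Pdcd7 (0.140), Zcrb1 (0.57), Clns1a (0.086), Phax (0.23), Hipk3 (0.44), Cirbp (0.52), Pcbp2 (0.86) and Rbm3 (0.104) ended under it. The fixed replicate block ended those of Rbm20 (0.099), Zcrb1 (0.118), Cirbp (0.069), Pcbp2 (0.23) and Rbm3 (0.073). Without the 3 scattered arrays 11 of the 30 regulators were higher and 7 lower (60%, against 39.4% of the named genes). Whether the share called differs between these regulators and the members was not tested.

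**Figure D4:**
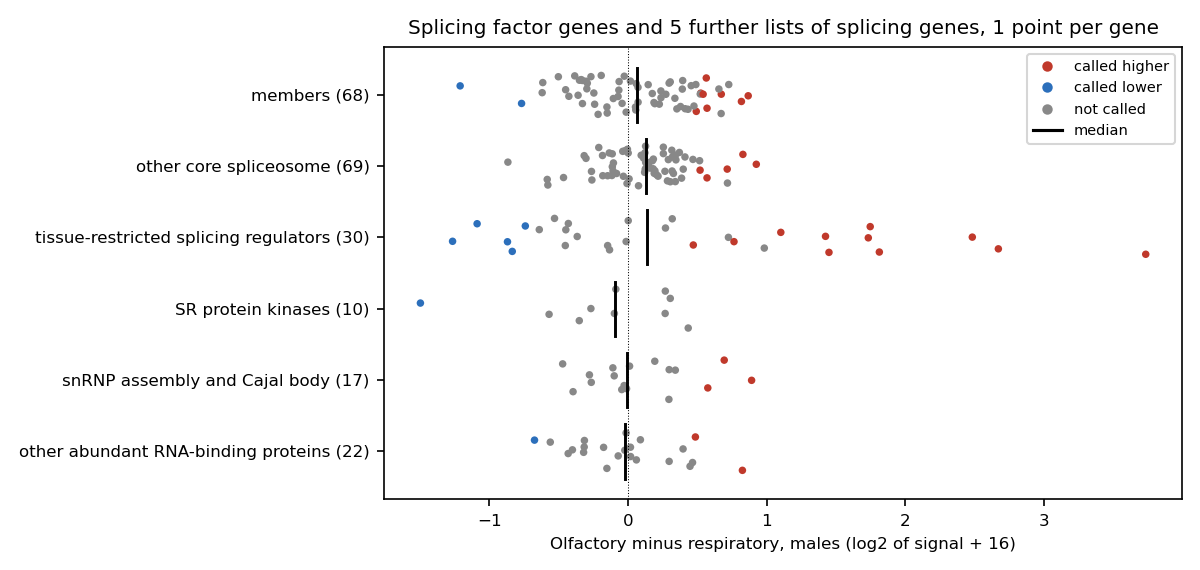
Olfactory minus respiratory difference in males, in log2 of signal plus 16, for each member and for each gene of 5 further lists of splicing genes, with list sizes in brackets and the list median as a bar. The members and the rest of the core spliceosome stay mostly within 1 unit of 0, while the list of tissue-restricted regulators reaches 3.74.

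Several probe sets read the same gene for 24 of the 68 members, 67 probe sets in all, and they often disagreed. In 14 of the 24 genes the probe sets pointed in opposite directions in males, although no gene had probe sets called both ways, and the median distance between the highest and the lowest log2 difference of a gene was 0.64. Of the 43 probe sets not used for a gene's value, 1 was called higher and 1 lower. The former read U2af1l4 and was not well above background on any male respiratory array, so its signal was at least 1.42-fold higher in male olfactory arrays (adjusted p = 0.0079), while the kept probe set of that gene stood at 0.48 (adjusted p = 0.21). The latter read Sf3b1, with signals of 94.5 to 345 in male olfactory and 155 to 567 in male respiratory arrays, a difference of -1.03 (SE 0.34, adjusted p = 0.026), against -0.45 (adjusted p = 0.20) for the kept one. All 3 probe sets of Prpf38b pointed down, at -0.77, -0.65 and -0.92, and with their mean the male call was lost (-0.78, SE 0.36, adjusted p = 0.124). In females one of them was at background on both olfactory arrays and at least 2.97-fold lower there (adjusted p = 0.0042). Probe sets of a gene can read different transcript ends or isoforms, and which of them a given one reads was not analysed here.

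**Figure D5:**
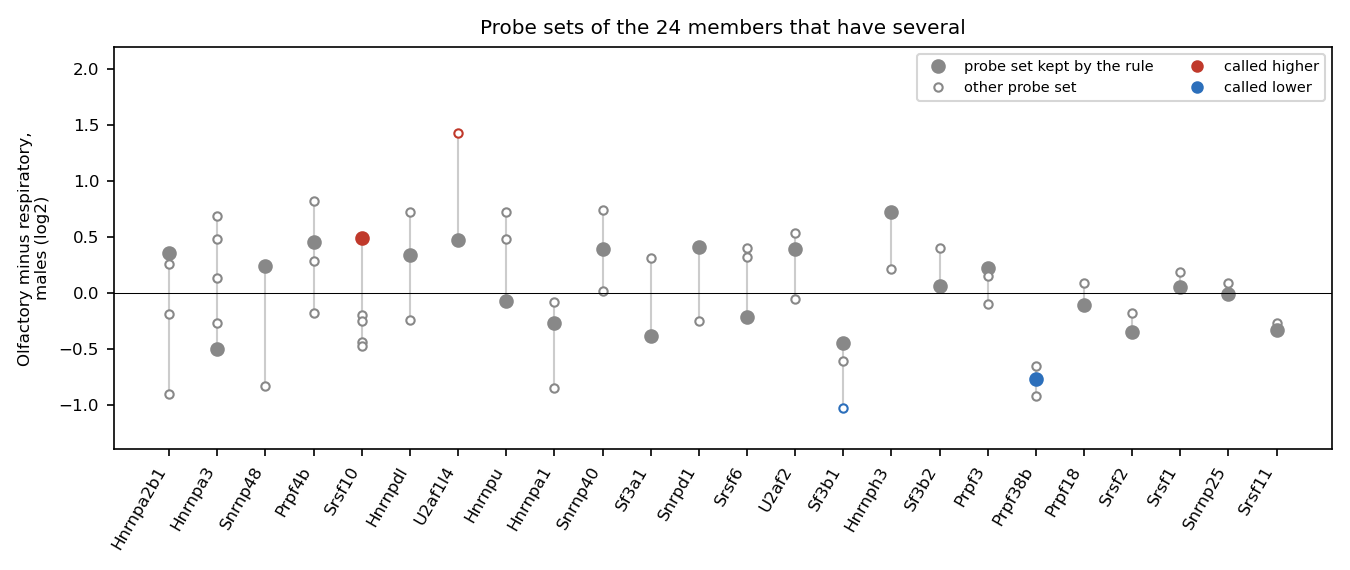
Olfactory minus respiratory difference in males, on the log2 scale, for every probe set of the 24 members that have several, with the probe set kept for the gene filled and the others open, ordered by the distance between them. For Srsf10 the kept probe set was called higher at 0.49 and the 4 others lie below 0.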

How the data were processed

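Each array (Affymetrix Rat230_2) has 1 deposited intensity per probe set, on a linear scale. Per the submitters' processing notes the authors used GCOS 1.0, and its algorithm is not given in the sources used here. After trimming 2% at each end the mean was 500.1 to 500.3 on every array, so this scaling was kept. Of 31099 probe sets, 57 are controls and were not tested, 20826 carry 1 gene symbol, 436 several and 9780 none. To each intensity 16 was added before taking log2. The fit was made with limma (version 3.58.1, R 4.3.3), with 4 group means over 20 arrays and an intensity trend. Tests are two-sided with Benjamini-Hochberg adjustment, and a call is an adjusted p under 0.05. The fit was tested on simulated data. An array's background is the 95th percentile of its 27 Bacillus control probe sets (28.2 to 64.9). Where every array of a group was under it, a fold is a lower bound: the brighter group's mean against, per array, the higher of its signal and its background.

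Groups are the labels' sex and tissue, and arrays with equal sex and number were read as 1 rat, since the labels name the individual. Deviations of a rat's arrays correlated by -0.18 to 0.25 (consensus 0.039). The number of arrays limits the precision.

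The members and lists were chosen with earlier results of these data known. Named are up to 12 called members per direction in males, the farthest member of each role, and for each list the 2 largest called rises and falls. Members called in females alone, others given as examples, and the extra probe sets were chosen after their values were seen. Alternatives were other pseudocounts, quantile normalization, a filter on dim probe sets, the mean of a gene's probe sets, the rat as a block, RNA integrity, age, array weights, only the compared groups and leaving out arrays.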

Additional observations from a re-analysis of the deposited data

Results flagged for a closer look

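In 17 cases a single array stood far from the other 5 of its group for one of the 19 named members looked at, out of 57 groups tested. For independent groups the rule flags about 1 in 20. The 57 groups share the same arrays, and most of the members were chosen by their calls. The count therefore cannot be set against that rate. How often the rule flags the named genes was not counted. Of the 17, 15 were on male olfactory array 10, male respiratory array 7 or female respiratory array 8.

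On male respiratory array 7 the signal was the highest for Hnrnpl (6927, the others 3816 to 4667), Puf60 (4559, the others 2385 to 2773), Sf3b4 (3425, the others 1461 to 1816), Snrnp27 (3641, the others 2009.9 to 2370.3) and U2af1l4 (1292, the others 657 to 813). It was the lowest there for Hnrnpa3 (6714, the others 10241.6 to 12643), Prpf38b (254, the others 644 to 862), Prpf39 (366, the others 1240.2 to 1629), Srsf10 (546, the others 925 to 1139) and Srsf7-ps4 (81.6, the others 239 to 423). On each of these the array lay on the side of the olfactory arrays except for Srsf10, where it lay on the far side of its own group.

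On female respiratory array 8 the signal was the highest for Snrnp27 (8914, the others 2006 to 2384), Snrnp48 (838, the others 257 to 342) and U2af1l4 (1377, the others 465 to 658), and the lowest for Srsf4 (521, the others 1040.6 to 1285). On male olfactory array 10 Snrnp48 was the highest (457, the others 256 to 317). Elsewhere Hnrnpll was the highest on male respiratory array 1 (1025, the others 827 to 884) and Prpf39 on female respiratory array 6 (1788, the others 1488 to 1588).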

How the results depend on the processing

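With 2 female olfactory arrays, and RNA integrity that does not overlap between the tissues, small differences rest on few arrays. Pseudocounts of 1 and 64, quantile normalization, the filter on dim probe sets, the rat as a random replicate block and age kept all 10 male calls, and the sex and interaction counts were 0 in every setting. Members called higher and lower in males, 8 and 2, became 5 and 1 with the rat as a fixed replicate block, 0 and 0 with the RNA integrity covariate, 16 and 7 with array weights, 14 and 10 without male respiratory 7 and female respiratory 8, and 15 and 7 without male olfactory 10 as well. They were 4 higher with only the compared groups, and, for lower, 1 with the mean of a gene's probe sets, 4 on the arrays with an integrity number and 6 in rats of 11 weeks. In females, 8 and 5 became 0 and 1 with the fixed replicate block, 0 and 0 with the covariate, 17 and 10 with array weights, 13 and 11 without those 2 arrays, and 17 and 13 without all 3. They were 5 higher with the mean of probe sets, and, for lower, 8 on arrays with an integrity number, 8 with only the compared groups and 12 over all 111 probe sets. The share of named genes called moved as well. In males 31.8% became 24.6% with the fixed replicate block, 9.9% with the covariate and 41% with array weights. In females 22.5% became 9.98%, 4.99% and 33.6%. The cause of these shifts was not tested. Leaving out 1 array gave 4 to 13 higher and 1 to 7 lower in males, and 0 to 12 higher and 1 to 9 lower in females. The higher count in males was 4 without male olfactory 4 or male respiratory 4, 5 without male olfactory 1 or 7 or male respiratory 2, 3 or 8, and 13 without female respiratory 8, and the lower count was 1 without male olfactory 4 or male respiratory 2, 3 or 8 and 7 without male respiratory 7, where that of females was 9. Srsf10 turned to -0.17 in males and -0.35 in females with the mean of its probe sets. Of the other values for single genes, 1397 kept their side of the threshold, 166 lost their call and 30 gained one. The 1397 include uncalled values whose direction turned. In males Hnrnpa1 ran from -0.46 to 0.31 over the settings and Snrnp48 from -0.30 to 0.31. The settings without 2 or 3 arrays, the 11-week rats and all probe sets were chosen after seeing the data.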
